A study of Mus musculus with 25 samples.

Results

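The large TAL1 clusters were 566 stretches of the mouse genome in which 5 or more TAL1 binding locations followed one another, each less than 500 bp from the next. They were found by sorting the final TAL1 location list along each chromosome and chaining neighboring midpoints, and a cluster ran from its first to its last midpoint. They made up 6.80% of the 8321 units in the list, beside 2340 small clusters of 2 to 4 locations and 5415 single locations. They held 3694 of the 15209 TAL1 locations, or 24.3% (exact 95% binomial interval 23.6% to 25.0%). The clusters were selected on their number of TAL1 locations and on the distances between them, so the number of locations and the inner spacing are descriptions without a test.

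The locations came from ChIP-exo, in which an exonuclease trims immunoprecipitated DNA up to the crosslinked protein so that binding is placed to within a few bases. The cells were G1E, an erythroid progenitor line that lacks GATA1, and its subline G1E-ER4, which carries GATA1 fused to the ligand-binding domain of the estrogen receptor (GATA1-ER) and was sampled without estradiol and after 3 h and 24 h of estradiol; the labels give the strain of both as 129. TAL1 was precipitated with antibody sc12984, and its 15 libraries were 4 from G1E and 5, 3 and 3 from G1E-ER4 after 0, 3 and 24 h of treatment. GATA1 was precipitated with antibody sc265, and its 10 libraries were 1 from G1E and 3 from G1E-ER4 after each of those times. The location lists pool the libraries and the time points, so no cluster can be followed over time. Some TAL1 libraries came from G1E, which lacks GATA1, so overlap of the lists does not show binding in the same cells or at the same time. Cooccupied here means only that a TAL1 and a GATA1 position were less than 40 bp apart. The lists give each location as a position in mm9 with no score, tag count or replicate. The study gives the read numbers of its libraries, which were not used here, and the intervals cover counting error only. The sources differ on whether the GATA1 list also pools the G1E library. No expression was measured, so the label of the cells could not be checked against marker genes.

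TAL1 is a basic helix-loop-helix protein that pairs with E proteins to bind E-boxes, and it is required for the formation of blood. GATA1, a zinc finger protein required for red cell and megakaryocyte development, binds WGATAA, which stands for AGATAA and TGATAA. In erythroid cells both proteins are found in a complex with LMO2 and LDB1. A homotypic cluster is a run of locations of the same factor.

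Most of the large clusters held a GATA1 location and WGATAA, and 8 windows show how they sat. They were chosen for their range of motifs from 16 windows on the clusters named below, of which 4 held the TG described next, 8 held WGATAA without it and 4 held no WGATAA; the 8 are all those with TG, 3 with WGATAA alone and 1 with neither, so their shares are not those of the 16. Each window is 81 bp of mm9, with the GATA1 location closest to the center of the cluster at its middle base. Capitals mark AGATAA or TGATAA, which read TTATCT or TTATCA when the motif is on the other strand, and the TG (or CA) that has 7 or 8 bases between it and the motif on its upstream side.
Cbfa2t3, chr8:125244297-125244377, + strand: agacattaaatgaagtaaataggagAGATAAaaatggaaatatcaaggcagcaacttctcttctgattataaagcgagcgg
Tmem131, chr1:36976969-36977049, + strand: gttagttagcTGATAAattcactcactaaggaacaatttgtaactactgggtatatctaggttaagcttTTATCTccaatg
Acsl1, chr8:47497399-47497479, + strand: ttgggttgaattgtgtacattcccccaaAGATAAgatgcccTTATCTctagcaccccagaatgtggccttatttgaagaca
Rbp2, chr9:98390160-98390240, + strand: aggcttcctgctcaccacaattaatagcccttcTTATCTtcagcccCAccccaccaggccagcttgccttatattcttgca
Rnd2, chr11:101346943-101347023, + strand: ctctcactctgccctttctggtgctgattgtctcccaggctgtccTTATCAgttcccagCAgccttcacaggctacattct
Sema4b, chr7:87353584-87353664, + strand: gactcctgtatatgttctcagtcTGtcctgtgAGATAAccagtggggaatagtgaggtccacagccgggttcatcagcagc
Sema5b, chr16:35677866-35677946, + strand: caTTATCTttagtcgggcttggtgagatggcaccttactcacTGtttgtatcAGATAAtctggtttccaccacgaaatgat
Atp2b4, chr1:135722384-135722464, + strand: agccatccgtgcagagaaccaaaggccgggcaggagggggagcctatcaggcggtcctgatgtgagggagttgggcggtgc
The Rbp2 and Sema4b windows had TG with 7 bases between it and the motif, and the Rnd2 and Sema5b windows had 8. The window near Cbfa2t3 had AGATAA 10 bases from the GATA1 location but no TG at these distances. The Tmem131 window held 2 motifs, likewise without such a TG. The Acsl1 window held 2 motifs facing each other, the closer of them 1 base from the GATA1 location. The Atp2b4 window held neither AGATAA nor TGATAA. The clusters behind these windows had 8 to 19 TAL1 locations, and each window held only 1 to 3 of them, so most locations of the clusters lay outside the windows.

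The clusters were short and dense. A large cluster spanned a median of 413 bp, with quartiles of 331 and 513 bp and a range of 141 to 1385 bp, and 555 of the 566 were under 1000 bp long. Small clusters spanned a median of 163 bp. There were 440 clusters of 5 to 7 locations, 100 of 8 to 10 and 26 of 11 or more. Just inside the threshold, the 229 clusters of 5 spanned a median of 360 bp, and just outside it the 399 clusters of 4 spanned 288 bp. The median span was 698.5 bp in the clusters of 11 or more. Most stood apart from other TAL1 locations: the next one outside the cluster was a median of 11972 bp away, and it lay within 1 kb for 33 clusters and within 10 kb for 260 (45.9%).

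The largest cluster held 19 TAL1 locations over 1084 bp, 21199 bp from the closest start site, that of Cbfa2t3, the gene of ETO2, a corepressor in the TAL1 complex. The cluster with 17 locations lay in an intron of Tmem131 and spanned 1137 bp, and the one with 15 locations was 5044 bp from the start site of Hdgf, a growth factor gene. A cluster of 14 locations packed into 460 bp lay 17134 bp from the start site of Cdk17, a cyclin-dependent kinase gene. The 6 clusters of 13 locations were closest to Papola, encoding poly(A) polymerase, Rbp2, encoding a cellular retinol-binding protein, Atp2b4, encoding a plasma membrane calcium pump, Acsl1, encoding a long-chain acyl-CoA synthetase, Prkar2b, encoding a regulatory subunit of protein kinase A, and Rnd2, encoding a small GTPase. The tightest of these, 501 bp long, lay in an intron of Ak7 although Papola had the closest start site. Of the 7 clusters with 12 locations, the 2 with the shortest spans completed the set, those of Ahi1 (518 bp) and Pik3cg, a phosphoinositide 3-kinase gene (571 bp). All 12 held at least 1 GATA1 location and 1 WGATAA. The Rbp2 cluster was the one among them within 1 kb of a start site, at 892 bp. Some of these counts include nearly identical positions. Neighbors 1 bp apart were present in the clusters of Cbfa2t3, Hdgf, Cdk17, Rbp2 and Atp2b4, whereas the smallest gap in the Tmem131 cluster was 33 bp. The order of the clusters was not computed again with such neighbors joined, so it depends on them.

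**Figure D1:**
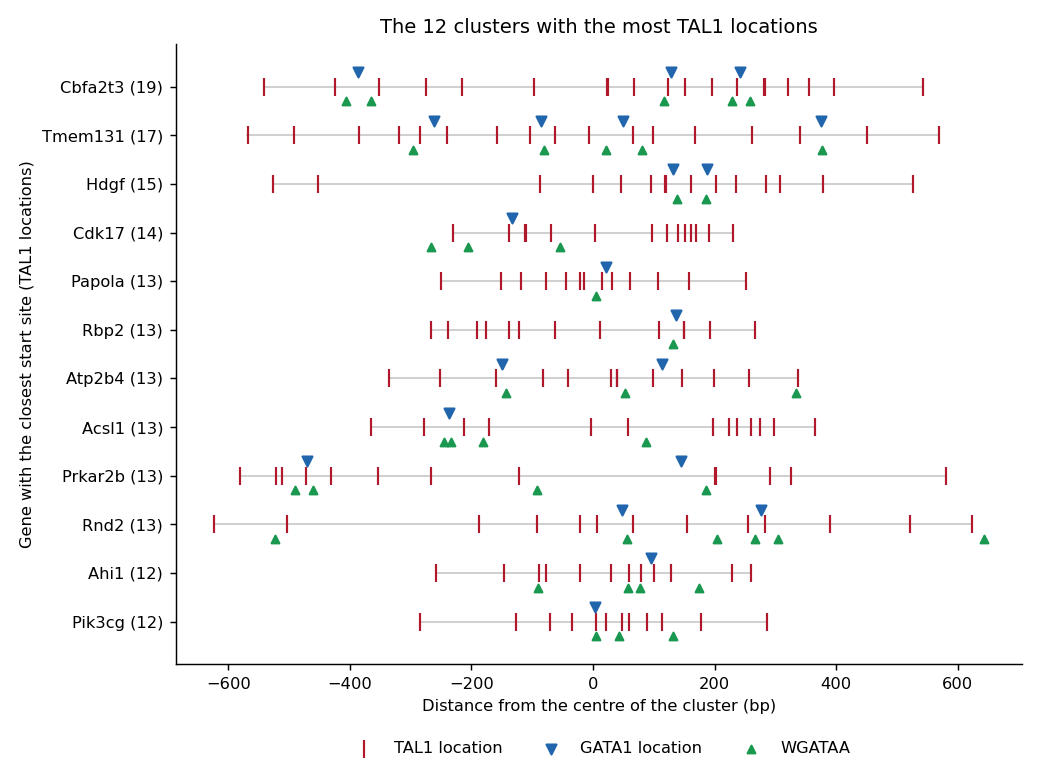
Positions within the 12 clusters with the most TAL1 locations, one row per cluster, with distance from the center of the cluster in bp on the horizontal axis. Red ticks are TAL1 locations, blue triangles GATA1 locations and green triangles WGATAA motifs within 40 bp of the span; each cluster has more red ticks than green triangles, as in Cbfa2t3 with 19 TAL1 locations and 5 motifs.

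Neighboring TAL1 locations were closest together in the middle of the clusters. The 3128 inner gaps had a median of 73 bp (quartiles 44 and 106 bp), and the 3760 gaps of small clusters had a median of 112 bp (75 and 146 bp). Gaps of 20 to 99 bp made up 62.8% of the gaps in large clusters and 38.4% in small clusters. The outermost gaps of large clusters had a median of 99 bp, and the other inner gaps 60 bp. In clusters of 8, the medians of the 7 successive gaps were 94, 59, 57, 39, 37, 69 and 98 bp. Clusters of 5 ran 100, 71, 69 and 102 bp. The mean of the outermost gaps exceeded the median of the others in 461 of 566 clusters (81.4%), and both outermost gaps did so in 327 (57.8%). A mean was set against a median, and no share was computed for gaps in shuffled order, so neither share has a baseline here. Some neighbors were nearly the same position: 57 gaps were of 1 bp, in 52 clusters, and 8.0% of gaps were under 20 bp. When locations under 20 bp apart were joined first, 511 clusters of 5 or more were left.

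**Figure D2:**
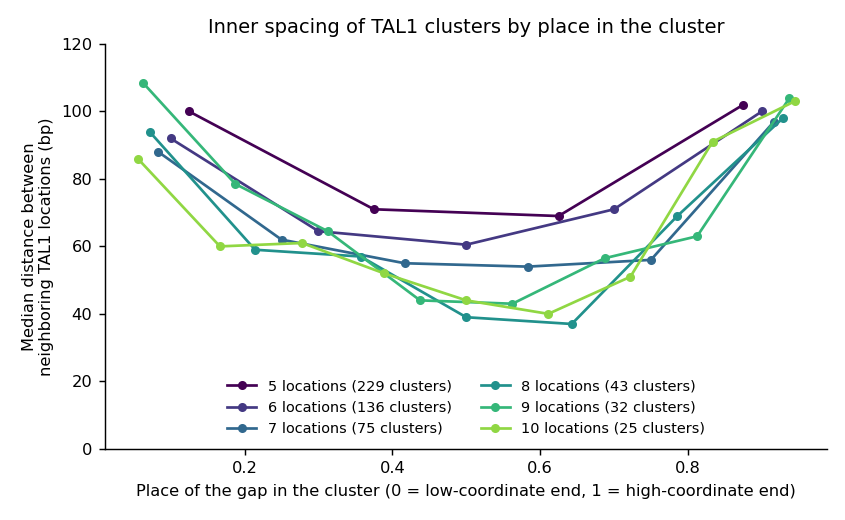
Median distance in bp between neighboring TAL1 locations against the place of the gap in the cluster, for clusters of 5 to 10 locations, with the number of clusters in the legend. In every size drawn the outermost gaps (86 to 108.5 bp) are wider than the gaps at the center, which reach 37 bp in clusters of 8.

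Almost every large cluster held GATA1. A GATA1 location lay inside the span of 523 of 566 large clusters (92.4%, interval 89.9% to 94.4%) and of 1394 of 2340 small clusters (59.6%, 57.5% to 61.6%), while the share over all clusters of 2 or more was 66.0%. The longer spans of large clusters give them more room for a GATA1 location, so this difference was not tested. Counted by cooccupancy, 521 large clusters (92.0%) had a TAL1 location less than 40 bp from a GATA1 location, as did 1449 small clusters (61.9%) and 1539 single locations (28.4%), against 42.2% of all units. This count grows with the number of locations, on which the clusters were selected, and was not tested either. Counted per location, the order was the other way: 934 of the 3694 TAL1 locations in large clusters lay less than 40 bp from GATA1 (25.3%), as did 1706 of 6100 in small clusters (28.0%) and 28.4% of the single locations. Just inside the threshold 88.6% of clusters of 5 had a cooccupied location, and just outside it 76.7% of clusters of 4 had one.

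In the final list most large clusters had a single GATA1 location. The large clusters held 654 GATA1 locations, 6.36% of the 10290 in the list: 413 clusters held exactly 1, 94 held 2, 11 held 3, 5 held 4 and 43 held none. Of the clusters with 9 or more TAL1 locations, 48.2% held 2 or more GATA1 locations (mean 1.61), and of those with 5 or 6, 14.5% did (mean 1.05). The 5 clusters with 4 GATA1 locations were those of Tmem131, Sema4b and Sema5b, which encode semaphorins, Nab1, a corepressor gene, and Mrm1. They held 8 to 17 TAL1 locations, of which 4 to 6 were cooccupied. Some of their GATA1 locations were close neighbors, at 52511410 and 52511414 in the Nab1 cluster and at 35677994 and 35678005 in the Sema5b cluster. Such neighbors were counted separately. In the list of GATA1 peak pairs, a large cluster held a median of 4 pairs and at most 25, and 509 of 566 (89.9%) held 2 or more. The paper treats peak pairs as candidate crosslinking points that need not be separate binding locations. It describes a major and a minor GATA1 pair around WGATAA, so the number of pairs is not a number of bound sites. The pairs were not counted in small clusters or at single locations.

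The GATA1 location sat near the center of the cluster. In the 413 clusters with exactly 1, it lay between 25% and 75% of the span in 332 (80.4%, 76.2% to 84.1%), and its median distance from the center was 53 bp. The span was set by the TAL1 locations, and only GATA1 locations inside it were counted. The share of TAL1 locations in the same part of the span was not computed, so the 80.4% has no baseline here. By distance from the GATA1 location, the median gap between TAL1 locations was 60 bp at less than 100 bp, 87 bp at 100 bp to under 200 bp and 99 bp at 200 bp or more. Gaps were narrower in the middle of clusters, where GATA1 mostly lay. Closeness to GATA1 therefore cannot be told apart here from place in the cluster. Of the end locations 6.98% were cooccupied, of those next to the ends 23.5%, and of the remaining inner locations 41.2%. WGATAA within 20 bp followed the same order, with 6.98%, 14.6% and 25.1%.

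**Figure D3:**
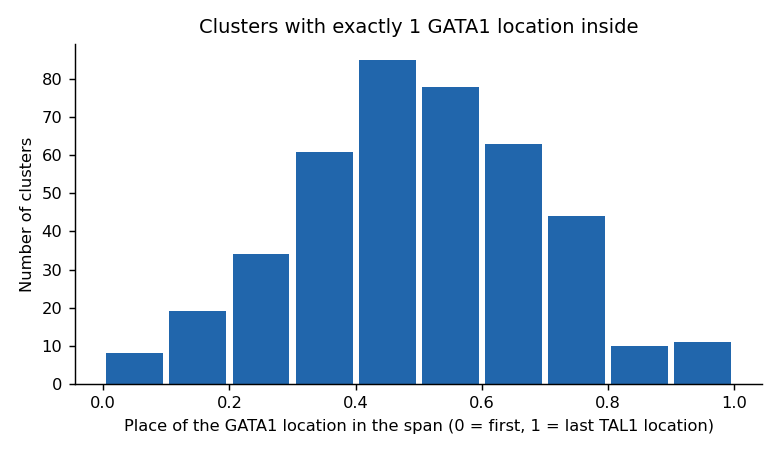
Number of clusters by the place of the GATA1 location in the span, where 0 is the first and 1 the last TAL1 location, for the 413 large clusters with exactly 1 GATA1 location inside. The tallest bars, 85 and 78 clusters, stand on either side of the center, and the bars at the ends hold 8 and 11.

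The next comparison took 1 TAL1 location per cluster, the middle one in order, and asked whether it lay less than 40 bp from GATA1. It did in 268 of 566 large clusters (47.3%, 43.2% to 51.6%), in 842 of 2340 small clusters (36.0%, 34.0% to 38.0%) and in 1539 of 5415 single locations (28.4%, 27.2% to 29.6%), beside 31.8% of all units. The odds were 1.60-fold those of small clusters (exact interval 1.32 to 1.93, adjusted p = 4.151e-06) and 2.27-fold those of single locations (1.89 to 2.71, adjusted p = 2.185e-18), by two-sided Fisher's exact tests adjusted over 10 tests. A cluster of 2 has no middle, so an end stands for it, and 1319 of the small clusters were such pairs, with GATA1 at 29.4%. By number of locations the share was 46.6% for 3, 41.1% for 4, 50.2% for 5 and 39.0% for 6. Against small clusters of 3 or 4 only, a comparison added after the data were seen, the large clusters no longer passed, with 47.3% against 44.5% (odds ratio 1.12, adjusted p = 0.4497, Fisher's exact test). With odd numbers of locations only, also added later, the odds ratio was 1.09 against clusters of 3 (adjusted p = 0.6321) and 2.41 against single locations (adjusted p = 5.957e-14, Fisher's exact test). At the first location by coordinate, an end, GATA1 was found in 6.01% of large clusters, 22.9% of small clusters and 28.4% of single locations, and the odds ratios became 0.215 and 0.161. The direction thus depended on which location stood for a cluster, and middle and end are set by the TAL1 positions used for selection. Over all their locations the share was 25.3% in large clusters, below that of single locations. These p-values therefore cannot show that large clusters are richer in GATA1. Within 200 bp of the center of the span, a distance chosen after the data were seen, GATA1 was present at 89.2% of large clusters, 76.1% of small clusters and 44.5% of single locations. By number of locations these shares were 87.3% for clusters of 5, 81.7% for 4, 81.2% for 3 and 72.0% for 2. Peak calls moved with the classes: 88.0%, 80.1% and 73.9% of the TAL1 locations in large clusters, small clusters and single locations had a TAL1 peak pair within 20 bp, and their part in the result was not tested beyond keeping those locations only, which left both calls in place.

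**Figure D4:**
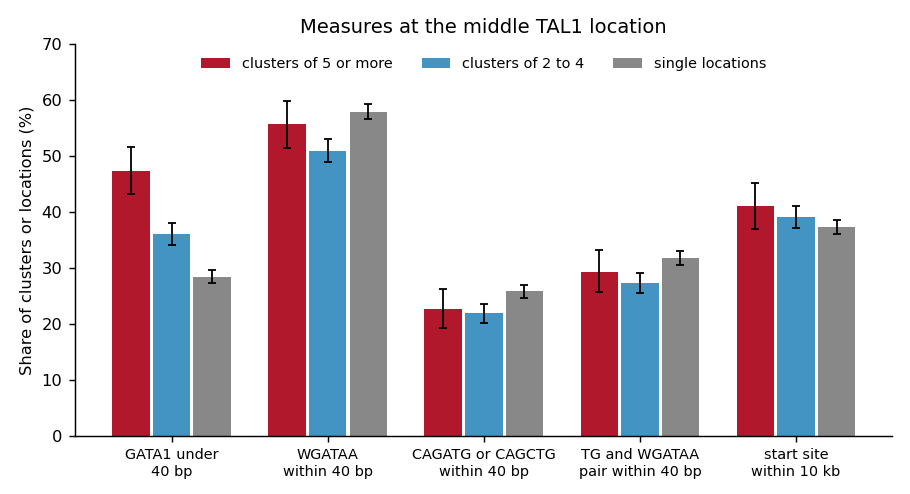
Share in percent of large clusters (red), small clusters (blue) and single locations (gray) with each feature at the middle TAL1 location; bars start at 0 and the lines are exact 95% binomial intervals. GATA1 stands at 47.3%, 36.0% and 28.4% of them (44.5% of small clusters without those of 2), and the intervals of the large clusters overlap those of at least 1 other class for every other feature.

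No test of motifs at the middle location passed the threshold at this window. WGATAA was present within 40 bp in 55.7% of large clusters, 50.9% of small clusters and 57.9% of single locations, against 55.8% of all units (adjusted p = 0.1463 and 0.4068, Fisher's exact test). The E-box forms CAGATG and CAGCTG, searched on both strands, were present in 22.6%, 21.9% and 25.8%, against 24.5% of all units (adjusted p = 0.6928 and 0.2098, Fisher's exact test). TG with 7 or 8 bases to AGATAA or TGATAA, which contains WGATAA, was present in 29.3%, 27.2% and 31.8%, against 30.4% of all units (adjusted p = 0.4068 and 0.3917, Fisher's exact test). Within 100 bp of the middle location, the shares with this pair were 54.2%, 42.4% and 43.5%, and both differences passed the threshold; small clusters include the pairs, for which an end stands in. At that distance WGATAA and the E-box forms also passed against small clusters, with odds ratios of 1.44 and 1.36, and the E-box forms against single locations, with 1.24.

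Over the whole span the motifs were common, yet far fewer than the TAL1 locations. From 40 bp before to 40 bp after the span, WGATAA was found in 540 of 566 large clusters (95.4%), with a mean of 2.13 sites and at most 8. In stretches of the same length moved by 5 kb it was found in 39.8%, with a mean of 0.565. CAGATG or CAGCTG was found in 71.2% of the clusters and 50.1% of the moved stretches, and the TG and WGATAA pair in 70.8% and 7.77%. Other TAL1 sites had WGATAA nearly as often: within 200 bp of the center it was found in 91.5% of large clusters, 88.3% of small clusters and 85.7% of single locations, with means of 1.77, 1.63 and 1.46 sites. There were 3.06 TAL1 locations per WGATAA, and 555 of the 566 clusters had fewer WGATAA sites than TAL1 locations. Exactly 1 WGATAA was present in 154 clusters, 3 or more in 178 and none in 26. Both WGATAA and an E-box form were present in 384 clusters, and neither in 7. Of the WGATAA sites 69.3% lay in the central part of the searched stretch, from 25% to 75%, as did 72.0% of the TG and WGATAA pairs and 57.8% of the E-box forms.

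At WGATAA itself, TAL1 was mostly upstream and often had TG at a set distance, inside large clusters and outside them. At GATA1 locations with WGATAA and a TAL1 location less than 40 bp away, TG with 7 or 8 bases to the motif was present at 207 of 447 in large clusters (46.3%, 41.6% to 51.1%), at 46.2% of 1069 in small clusters and at 40.3% of 1113 at single locations. The share for other distances, per pair of distances, was 16.3%, 16.9% and 16.6%. The closest TAL1 location was upstream of WGATAA at 67.6% (63.0% to 71.9%), 67.2% and 65.0% of these, with a median of 11 bp upstream in each class. Further out, large clusters had 779 TAL1 locations 41 to 200 bp upstream of the 447 motifs and 792 on the other side at 40 to 200 bp, so the further locations lay on both sides.

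The 43 large clusters without GATA1 inside had a median of 5 TAL1 locations, and those with GATA1 inside a median of 6. WGATAA was present in 39 of the 43 (90.7%) and in 501 of the 523 with GATA1 inside (95.8%). In 25 of the 43, no final GATA1 location lay within 500 bp of a TAL1 location. The others had one within that distance but outside the span. Some of these were cooccupied at an end, as near Fermt3 and Daf2, where GATA1 lay 1 and 2 bp from a TAL1 location. There were GATA1 peak pairs inside 26 of the 43 clusters and GATA1 MultiGPS locations inside 4. In 10 clusters none of the GATA1 lists had an entry inside, and no final GATA1 location lay within 500 bp of a TAL1 location. These 10, named because the count is small and not by the rule for genes, were closest to Nrp2, Accn4, Epb4.2, 3110043O21Rik, 3110062M04Rik, Cbfa2t3, Shmt1, Spns2, Arid4a and Cxxc5. They held 5 or 6 TAL1 locations. Their clusters at Cbfa2t3 and Epb4.2, which encodes a red cell membrane skeleton protein, lay 63 and 76 bp from the start site, and each held 1 WGATAA and 4 E-box forms.

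Most large clusters lay far from start sites, in introns or outside genes. By their centers, 291 lay in introns of protein-coding genes (51.4%), 22 in exons (3.89%) and 253 outside genes (44.7%). The shares were 54.3%, 3.46% and 42.3% for small clusters, and 54.8%, 4.23% and 40.9% for single locations. The median distance from the center to the closest start site was 14640.5 bp, against 15508.5 bp for small clusters and 16687 bp for single locations. A start site lay within 1 kb of 49 large clusters (8.66%) and within 10 kb of 233 (41.2%). Measured from the middle location, the share within 10 kb was 41.0% for large clusters, 39.0% for small clusters and 37.3% for single locations, against 38.0% of all units (adjusted p = 0.4319 and 0.2098, Fisher's exact test). Within 1 kb of the middle location the shares were 8.30%, 7.09% and 7.33% in the same order (adjusted p = 0.4068 and 0.4437, Fisher's exact test).

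The closest start sites belonged to 505 genes, 2.27% of the 22208 protein-coding genes, of which 459 had 1 large cluster and 12 had 3 or more. Cbfa2t3 had 4 clusters with 35 TAL1 and 4 GATA1 locations, Zfpm1 4 clusters with 26 and 5, and Runx1 4 clusters with 23 and 6. Zfpm1 encodes FOG-1, the cofactor of GATA1, and Runx1 a transcription factor required for blood stem cells to form. The 4 clusters of Cbfa2t3 held 5, 6, 5 and 19 locations and lay 6928, 63, 1701 and 21199 bp from a start site. Those of Runx1 lay at 3726 and 18484 bp inside the gene and at 303553 and 321674 bp from the start site outside it. Prkar2b, Gm15800, Hmcn1, Ikzf2, which encodes the transcription factor Helios, Gse1, Col4a3, a collagen gene, and Cpeb4, which encodes an mRNA-binding protein, had 3 clusters each. All 3 Ikzf2 clusters lay outside the gene, 172183 to 189756 bp from the start site, and held 8, 5 and 7 TAL1 locations. They lay past the other end of the gene, 34802, 23312 and 17091 bp from its body.

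Among the lists, genes of the red cell membrane and skeleton had the highest share near large clusters. Shares near small clusters and single locations were not computed, so closeness to listed genes is not shown to be particular to large clusters. Of all protein-coding genes, 2.30% had a large cluster in the body or within 10 kb. Of 136 genes in 6 blood lists 37 did (27.2%), and of 35 genes in the liver, neuron and muscle lists 1 did, the muscle gene Ryr2. The lists were chosen with earlier results of these data known, so their shares are descriptions and not independent of the data. The membrane and skeleton list had 11 of 18. Spnb1, which encodes beta spectrin, had 2 intronic clusters of 10 TAL1 locations each, over 435 and 408 bp, with 2 and 3 GATA1 locations. Spna1, encoding alpha spectrin, had 6 locations 1086 bp from its start site, and Slc4a1, encoding the anion exchanger band 3, had 5 locations in an intron with 5 E-box forms.

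The globin and heme synthesis list had 6 of 18. Cpox, a heme synthesis enzyme gene, had clusters of 6 and 5 TAL1 locations at 91 and 8095 bp from its start site, each with 1 GATA1 location. Abcb10, a mitochondrial transporter gene, had clusters of 5 and 6 locations at 5702 and 7456 bp. Alas2, the gene of the first enzyme of erythroid heme synthesis, had 5 TAL1 and 2 GATA1 locations in an intron, and Hbb-b2, a beta globin gene, had 6 TAL1 locations over 607 bp at 4638 bp from its start site with 4 WGATAA sites.

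The list of the TAL1 complex and its corepressors had 4 of 23. Zfpm1 had 5 clusters of 8, 5, 6, 7 and 6 TAL1 locations in its introns, each with 1 or 2 GATA1 locations. Cbfa2t3 had 3 within 10 kb. Lyl1, a close relative of Tal1, had 6 locations 233 bp from a start site, and Gata1 itself had 5 TAL1 and 1 GATA1 locations in an intron. Tal1, Gata2, Ldb1 and Lmo2 had none within 10 kb. Tal1 had 1 within 50 kb, for which another gene had the closest start site, and Gata2, Ldb1 and Lmo2 had none at that distance. The cluster for which Lmo2 had the closest start site lay 64077 bp from it.

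The blood transcription factor list had 7 of 32, led by Runx1 with 2. Klf1, which drives beta globin expression, had 6 TAL1 locations over 704 bp at 424 bp from its start site, Erg had 8 over 1002 bp in an intron, and Hhex had 5 in an intron with no WGATAA and no E-box form. The cytokine signaling list had 5 of 26. Epor, the erythropoietin receptor gene, had 5 TAL1 locations 954 bp from its start site, also with no WGATAA, and Csf2rb2 had 5 locations 6992 bp away. Stat3 and Stat5a shared 1 cluster of 6 locations in an intron of Stat3, with 2 GATA1 peak pairs but no final GATA1 location inside. The survival and cell cycle list had 4 of 19, with an intronic cluster in each of Bcl2l1 (9 locations), Bnip3l (6), Ccnd3 (7) and Ccne1 (5). Neighboring genes can share a cluster, and the lists were set against the share of all genes without a test.

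**Figure D5:**
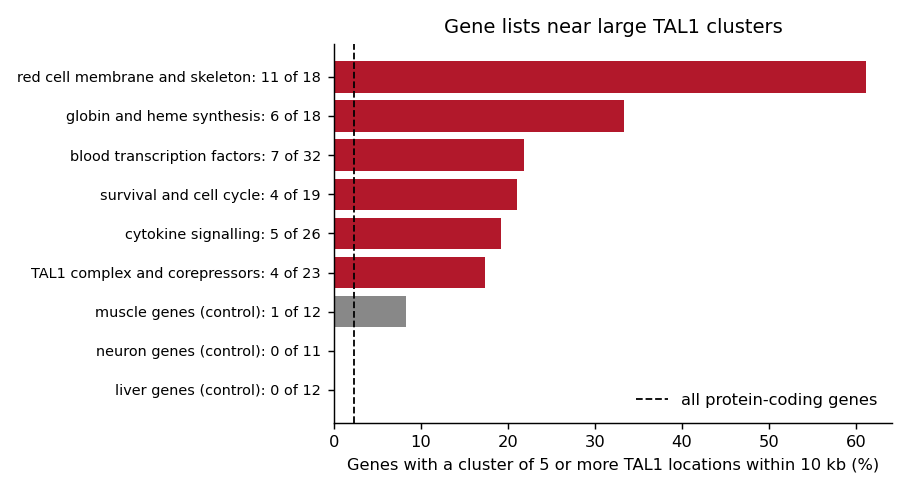
Share in percent of the genes in each list that have a large TAL1 cluster in the body or within 10 kb, for 6 blood lists (red) and 3 control lists (gray), with the number of genes beside each name. The dashed line is the share of all protein-coding genes, 2.30%. The membrane and skeleton list stands at 61.1% and the liver and neuron lists at 0. The lists were chosen with earlier results of these data known.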

How the data were processed

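The authors aligned the ChIP-exo reads to mm9, paired the peaks called on opposite strands, called locations with MultiGPS and kept as final those within 100 bp of a peak pair. The submitters' processing notes name Bowtie 1.00, BWA 0.6.2 and 0.7.9a, CASAVA 1.7 and bcl2fastq 2.15. The deposited location lists hold other values than counts: a chromosome and a single-base position per entry, pooled over libraries. The study's read numbers were not used here, and replicates could not be compared.

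Final TAL1 locations on 20 chromosomes were chained at distances under 500 bp. Sequence came from mm9, and genes were the 22208 protein-coding genes of GENCODE vM1 with 45971 start sites. Motifs were exact strings on both strands. Shares carry exact binomial intervals at 95%. The 10 Fisher's exact tests compared counts of clusters, were two-sided and were adjusted by the Benjamini-Hochberg method at 0.05. Python 3.11.15, scipy 1.17.1, pysam 0.24.0 and samtools 1.23.1 were used, and the scripts were tested on simulated data. The genes named were those closest to the 12 clusters with most locations, ties going to the shorter span, up to 10 closest to 3 or more clusters, up to 4 per list with the most clusters within 10 kb, in list order where tied, and the 5 clusters with most GATA1 locations; any other is a list member without a cluster or a named exception. The clusters of 1 listed gene that the rule names are not reported here. The members and gene lists were chosen with earlier results of these data known. Of the alternatives tried, 19 were planned and 3 were added after the data were seen.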

Additional observations from a re-analysis of the deposited data

How the results depend on the processing

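The odds ratio of GATA1 at the middle location against small clusters lost the threshold with small clusters of 3 or 4 only (1.12) and with odd numbers of locations only (1.09), both added after the data were seen. Under these settings the odds ratios against small clusters were 0.931 and 0.841 for CAGATG or CAGCTG, 0.869 and 0.806 for the TG and WGATAA pair and 0.974 and 0.964 for start sites, and 0.986 for WGATAA with odd numbers, all short of the threshold; pairs of locations were left out of the small clusters. Under the other alternatives both GATA1 odds ratios stayed above 1 and past the threshold except at the first location by coordinate, where they were 0.215 against small clusters and 0.161 against single locations. There the other odds ratios against small clusters were 0.231 for WGATAA, 0.650 for CAGATG or CAGCTG and 0.249 for the TG and WGATAA pair, and against single locations 0.111, 0.399 and 0.120, all past the threshold; an end of a large cluster took the place of its middle. With a window of 100 bp the odds ratios were 1.44, 1.36 and 1.61 against small clusters and 1.17, 1.24 and 1.54 against single locations, of which that of WGATAA against single locations missed the threshold. WGATAA against small clusters passed with chaining under 250 bp (1.32) and with all MultiGPS locations (1.26), and against single locations with a weight matrix (0.773). Odds ratios on the other side of 1, short of the threshold, were 1.01 for the pair against single locations with all MultiGPS locations, 0.990 for start sites against small clusters with only locations that had a peak pair within 20 bp, 0.931 for any CANNTG against small clusters and 1.09 for CTG in place of TG against single locations. The cause was not tested. The number of large clusters was 965 with a minimum of 4 locations and 337 with 6, and 424 to 600 under the other alternatives. Of 136 values under alternatives, 104 kept their direction and their side of the threshold or stayed within 1.5 times, 19 changed direction, 9 passed the threshold anew, 2 lost it and 2 moved further.

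No paired analysis was possible because the lists pool the libraries and carry no sample, and leaving out a replicate could not be run for the same reason. The lists give positions without occupancy, so a weak location counts as much as a strong one, and how many locations are called in a stretch depends on the caller and the depth. Motif searches used fixed letters, and a missing match says nothing of binding. The closest start site need not mark the gene a cluster acts on, and the gene model Gm20388, 4434882 bp long on chromosome 8, placed clusters such as the largest near Cbfa2t3 in an intron.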

Other observations

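The large clusters made up different shares of the TAL1 units on different chromosomes, which were not tested. On chromosome 8 they were 46 of 409 TAL1 units (11.2%), on chromosome 17 31 of 315 (9.84%) and on the X chromosome 5 of 149 (3.36%), and the share over the genome was 6.80%. Of the 46 on chromosome 8, 14 lay in or within 10 kb of the long gene model that spans Gse1, Zfpm1 and Cbfa2t3. Of 546 pairs of neighboring large clusters, 26 were under 10 kb apart and 60 under 50 kb.

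Large clusters also differed in how the peak pair list covered them. They held a median of 10.5 TAL1 peak pairs against a median of 6 final locations, and the Tmem131 cluster had the most, 36. In 28 clusters there were fewer pairs than locations. The cluster near Tifa, named after its value was seen, held 5 locations over 153 bp and no TAL1 peak pair inside its span.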
